A study of Rattus norvegicus with 18 samples.

Results

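Collagen genes were followed in Rat1 fibroblasts without functional myc, before and after human MYC was put back, and after siRNA against the aryl hydrocarbon receptor (AHR). Members were all genes whose symbol is Col, a type number, a and a chain number. The rule found 26 of the 13188 genes in the table: 10 fibrillar chains, 2 basement membrane chains and 14 of other types. It used no measured value.

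All 18 libraries came from HO15.19, a myc-/- line derived from Rat1 rat fibroblasts, so every sample lacked functional rat myc, and each of the 6 groups held 3 samples. In 1 set of 6 libraries (the 6-library set), cells labelled myc-/- siCtrl (no added MYC, 48 h after 40 nM control siRNA) were compared with cells labelled myc-/- + MYC (human MYC from the retroviral vector pBabe, not transfected). In another of 12 libraries (the 12-library set), untransfected myc-/- cells were compared with myc-/- + MYC siCtrl cells, and these with myc-/- + MYC cells that received siAHR-2 or siAHR-5 in place of the control siRNA, also at 40 nM for 48 h. MYC and transfection therefore went in opposite directions in the first set and together in the second, and within either set the 2 cannot be told apart. The lines are 1 knockout clone and its derivatives under a viral promoter, and no label says that the 3 samples of a group came from separate cultures, so p-values measure the spread between these samples, which may be technical.

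Collagens are trimers of chains that wind into a triple helix. Fibrillar types (I, II, III, V, XI and XXVII) build the banded fibrils of connective tissue, type IV forms the sheet-like network of basement membranes, and the remaining types coat fibrils, anchor membranes to fibrils, form beaded filaments or span the cell membrane. Fibroblasts are a main source of type I collagen, whose chains are hydroxylated and folded in the endoplasmic reticulum, trimmed outside the cell and crosslinked by lysyl oxidases.

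Values are log2 normalised expression as deposited, by a transformation that is not stated. On a plain log2 scale a difference of 1 is a doubling, and the folds given here hold only for such a scale. The unit is not per length, so levels of different genes cannot be ranked against each other. The 2 sets lie on different scales (median log2 value of a library 10.999 to 11.05 in the first and 11.6 to 11.7 in the second), and levels were compared within a set. All 10 fibroblast markers were in the table, from Fap at a mean of 4.66 to 5.21 up to Vim or Fn1 at 18.5 to 20.4. A group mean of at least 5 was reached by 1 of 3 epithelial markers (Krt8 at 6.08 to 8.92, with Epcam at 1.24 to 2.40 and Cdh1 at 3.62 to 4.25), 1 of 3 leukocyte markers (Cd68 at 6.94 to 7.46, with Ptprc and Itgam at most 4.62) and 2 of 4 cartilage markers (Comp at 5.33 to 8.17 and Col2a1, with Sox9 at 0.000492 to 0.177 and Acan at most 2.19). Of endothelial markers 3 of 4 reached it (Tek at 5.64 to 9.10, Pecam1, and Cdh5 in one set or Kdr in the other). Kdr lay on a flat value of 5.26 in the 12-library groups with MYC (SD 0.00345 to 0.00611), so passing 5 does not show its expression there. Of 5 bone markers Runx2 reached a mean of 5 (11.7 to 14.1) and Bglap in 1 group (5.01), with Sp7, Alpl and Ibsp at most 3.72. Human MYC has no row in the table, and the rat Myc row still gave signal: 9.47, 9.29 and 9.16 in the libraries labelled myc-/- siCtrl and 8.05, 8.08 and 8.01 in those labelled myc-/- + MYC. It was 10.90, 10.82 and 10.94 in myc-/- and 8.16, 8.19 and 8.27 in myc-/- + MYC siCtrl, lower with MYC in both sets (log2FC -1.26 and -2.68), and it cannot check the labels. The library myc-/- replicate 2 stood apart: 242 genes in it differed by over 0.5 from the mean of the other 2 libraries of its group. In each of the other 17 libraries 0 to 18 genes did. It was the lowest of its group for 14 of the 26 members and 37% of all genes. That count does not set it apart, since myc-/- + MYC siCtrl replicate 2 was also lowest for 14 members. Without myc-/- replicate 2, all 13 calls with MYC in the 12-library set and all 14 of the difference between sets described further on remained. No log2FC of a member shifted by more than 0.11, and 1 member was added to each list of calls (Col2a1 and Col5a1). In bulk RNA, fewer cells making a collagen and less RNA per cell cannot be told apart.

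Promoters of 21 of the 26 members were found in RefSeq (rat build GRCr8). Those of 5 members are shown because they stand for the patterns described next: Col4a1 and Col5a3 fell in both sets, Col11a1 moved in opposite directions, Col8a1 rose in both, and Col1a2 sat on a flat lowest value in the libraries with MYC. Each is the 250 bases before the annotated start, 5′ to 3′, with capitals for the motifs CACGTG (E-box, bound by MYC), GCGTG (core of the AHR element), CCAAT (bound by NF-Y), GGGCGG (GC box, bound by SP1) and TATAAA (near the start of some promoters) on either strand.
Col4a1 (chr16:84885347-84885596, plus strand): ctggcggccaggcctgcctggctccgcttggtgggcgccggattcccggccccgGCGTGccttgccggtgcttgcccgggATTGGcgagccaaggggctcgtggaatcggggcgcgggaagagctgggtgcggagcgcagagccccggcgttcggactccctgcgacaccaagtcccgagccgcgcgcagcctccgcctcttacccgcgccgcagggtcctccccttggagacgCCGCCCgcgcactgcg
Col5a3 (chr8:27625949-27626198, minus strand): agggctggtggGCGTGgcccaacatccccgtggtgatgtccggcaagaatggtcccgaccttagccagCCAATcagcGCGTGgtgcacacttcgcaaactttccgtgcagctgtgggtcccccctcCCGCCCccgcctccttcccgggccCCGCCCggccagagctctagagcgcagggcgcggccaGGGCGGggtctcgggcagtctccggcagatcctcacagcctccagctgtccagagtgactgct
Col11a1 (chr2:204508886-204509135, plus strand): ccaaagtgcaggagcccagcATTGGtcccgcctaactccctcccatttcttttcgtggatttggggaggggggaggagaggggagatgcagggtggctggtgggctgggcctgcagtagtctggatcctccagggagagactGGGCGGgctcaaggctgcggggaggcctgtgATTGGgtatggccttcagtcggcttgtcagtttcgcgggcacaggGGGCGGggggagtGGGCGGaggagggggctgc
Col8a1 (chr11:56246532-56246781, plus strand): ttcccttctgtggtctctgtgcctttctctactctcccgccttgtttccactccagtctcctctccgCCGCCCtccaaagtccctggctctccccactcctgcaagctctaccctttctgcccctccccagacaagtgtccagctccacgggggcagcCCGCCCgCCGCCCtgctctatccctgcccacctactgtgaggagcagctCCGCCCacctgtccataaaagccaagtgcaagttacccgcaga
Col1a2 (chr4:33518307-33518556, plus strand): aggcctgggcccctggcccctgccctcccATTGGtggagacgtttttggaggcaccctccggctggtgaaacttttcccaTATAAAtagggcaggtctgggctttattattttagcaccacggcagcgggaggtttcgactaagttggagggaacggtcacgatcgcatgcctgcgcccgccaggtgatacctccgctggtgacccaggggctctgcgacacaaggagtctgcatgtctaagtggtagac

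No promoter was found for Col1a1, Col2a1, Col3a1, Col6a2 and Col14a1, so these were not searched. They include the members with the most negative log2FC with MYC in the 12-library set (Col1a1 -5.95, Col14a1 -4.72 and Col6a2 -3.28). None of the 21 windows held CACGTG, against 5.59% of 33469 promoters of the same length. GCGTG was in 8 of 21 (38.1%, against 25.9% of all), among them Col4a1 once and Col5a3 at 2 places. The GC box was in 12 of 21 (57.1%, against 30.5%), with 4 copies in Col8a1 and 3 each in Col11a1 and Col5a3. CCAAT was in 6 (28.6%, against 34.0%) and TATAAA in 3 (14.3%, against 12.9%), one of them Col1a2, 170 to 165 bases before the start. These matches describe letters in a window, and no binding was measured.

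The first question was how collagen genes differed with MYC. A gene was called when limma gave a change of at least 1.5-fold in either direction and an adjusted p of at most 0.01 over all 13188 genes. Of the 26 collagen genes, 13 were called in the 6-library set, 9 lower and 4 higher with MYC, where 26.8% of all genes were called (14.3% lower and 12.5% higher). Again 13 were called in the 12-library set, 12 lower and 1 higher, where 25.5% of all genes were called (14.7% lower and 10.8% higher). In that set, lower calls were 57.6% of all calls, 48.0% after quantile normalization and 52.8% after median centring, and the members then counted 11 lower and 2 higher, and 12 lower and 2 higher. The 6-library counts of 9 and 4 were the same under both scalings, while lower calls went from 53.3% of all calls to 48.3% and 57.8%. The median log2FC of the 26 was -0.12 and -0.21, beside -0.0038 and -0.00014 over all genes. At an adjusted p below 0.05 with no fold cutoff, 21 and 17 members passed, where 76.2% and 64.7% of all genes did. Groups without overlap were common: 88.5% of members and 78.8% of all genes in the 6-library set, and 73.1% and 70.5% in the 12-library set. Separation of the groups of a gene is therefore given below only as a description of its values. With MYC, 8 members were lower in both sets (Col1a1, Col4a1, Col5a1, Col5a3, Col6a2, Col14a1, Col18a1 and Col27a1), 1 was higher in both (Col8a1), 1 changed direction (Col11a1), 6 were called in 1 set and 10 in neither.

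**Figure D1:**
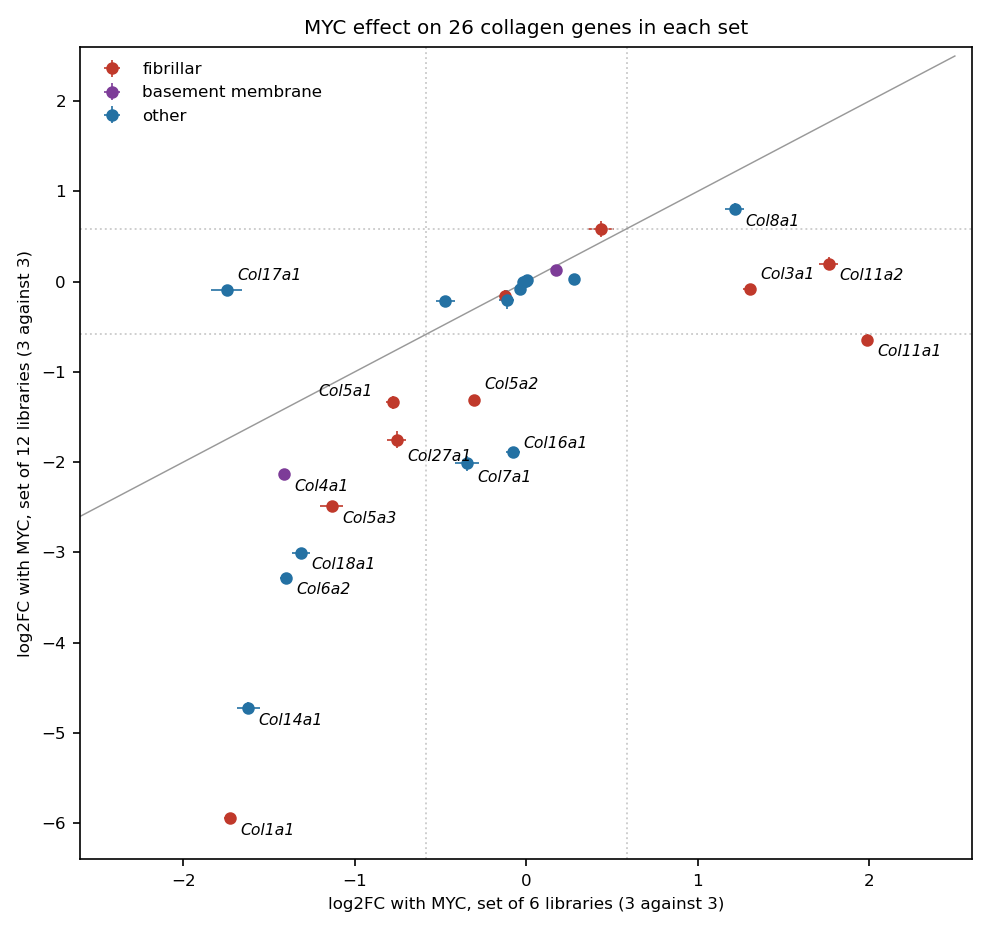
log2FC with MYC (limma, 3 against 3 libraries) for the 26 collagen genes in the 6-library set (x axis) and the 12-library set (y axis), with standard errors, coloured by class. Dotted lines mark the 1.5-fold cutoff and the diagonal marks equal effects. The 8 members called lower in both sets lie under the diagonal, with Col1a1 at -1.73 and -5.95, and Col11a1 is alone past both cutoffs with opposite signs.

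Among fibrillar chains, Col1a1, the α1 chain of type I collagen, had the largest change in the 12-library set. Its level was 19.29, 19.31 and 19.28 in myc-/- siCtrl and 17.61, 17.52 and 17.55 in myc-/- + MYC. In the other set it was 21.07, 20.93 and 21.01 in myc-/- and 15.05, 15.05 and 15.08 in myc-/- + MYC siCtrl. The groups were far apart in both sets, and the libraries without MYC were high. The log2FC was -1.73 ± 0.03 (SE, n = 3 against 3, 3.32-fold lower, adjusted p = 2.96e-12) and -5.95 ± 0.05 (61.7-fold lower, adjusted p = 4.30e-08), the latter in rank 2 of 13188 from the most negative. Over the alternative analyses listed under processing, the 12-library log2FC ran from -5.98 to -5.32. In the RefSeq annotation the Col1a1 span overlaps Sgca, and the library kit is not stated to keep strand.

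Col1a2, the α2 chain that joins 2 α1 chains in type I collagen, was called in neither set. The deposited values were 4.08, 4.13 and 4.03 in myc-/- siCtrl and 3.95 in each myc-/- + MYC library, and 3.76, 3.95 and 3.69 in myc-/- and 3.64 in each of the 9 libraries of the 12-library set with MYC. An SD of 0.000222 to 0.000667 in the groups with MYC means that these libraries sit on one flat value, the bottom of the scale for that gene. The log2FC was -0.13 (adjusted p = 0.00463) and -0.16 (adjusted p = 0.0809), and no fold is drawn from it.

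Chains of type V collagen, which sits inside type I fibrils and limits their width, were lower in each library with MYC in both sets, and Col5a2 missed the fold cutoff in the 6-library set. Col5a3 was 13.12, 13.07 and 13.06 in myc-/- siCtrl against 11.77, 11.99 and 12.09 in myc-/- + MYC, and 14.86, 14.83 and 14.86 in myc-/- against 12.32, 12.34 and 12.43 in myc-/- + MYC siCtrl. These groups do not overlap, and the log2FC was -1.13 and -2.49 (adjusted p = 3.17e-08 and 1.78e-07). Col5a1 was 16.13, 16.18 and 16.17 against 15.32, 15.37 and 15.46 in the 6-library set, and 17.56, 17.29 and 17.54 against 16.11, 16.11 and 16.13 in the 12-library set. It was lower in every library with MYC, with a log2FC of -0.78 and -1.34 (adjusted p = 5.55e-09 and 2.31e-05).

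Col5a2 was 16.47, 16.46 and 16.46 against 16.18, 16.14 and 16.14 in the 6-library set, and 18.78, 18.67 and 18.78 against 17.41, 17.41 and 17.48 in the 12-library set. The groups were separate in both sets, but the log2FC of -0.31 missed the fold cutoff in the first (adjusted p = 8.31e-07) and that of -1.31 passed it in the second (adjusted p = 3.96e-06). Col3a1, the chain of type III collagen and the neighbour of Col5a2 on the chromosome, took another course. It was 15.69, 15.71 and 15.66 in myc-/- siCtrl and 17.07, 16.98 and 16.92 in myc-/- + MYC, higher in each library with MYC (log2FC 1.304, adjusted p = 9.08e-11). The 12-library values were 14.93, 14.85 and 14.88 against 14.78, 14.77 and 14.85, where the groups met near 14.85 (log2FC -0.08, adjusted p = 0.0891).

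Type XI chains, the cartilage counterpart of type V, also differed between the sets. Col11a1 was 12.24, 12.22 and 12.27 in myc-/- siCtrl and 14.27, 14.20 and 14.22 in myc-/- + MYC, a rise of 1.99 on the log2 scale (3.97-fold, adjusted p = 7.50e-13). In the 12-library set it was 15.50, 15.31 and 15.47 in myc-/- and 14.83, 14.71 and 14.81 in myc-/- + MYC siCtrl, a log2FC of -0.64 (adjusted p = 2.27e-04). Each set was free of overlap, with the libraries with MYC high in one and low in the other. After quantile normalization the second value was -0.47 and missed the fold cutoff.

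Col11a2 was 7.12, 7.17 and 7.10 against 8.89, 8.92 and 8.87 in the 6-library set, higher in each library with MYC (log2FC 1.76, adjusted p = 2.09e-10). The 12-library values were 7.45, 7.67 and 7.64 against 7.83, 7.76 and 7.77, with the libraries with MYC just above the others, and the log2FC of 0.20 did not pass (adjusted p = 0.0554). Col27a1, a fibrillar chain of cartilage, was 12.37, 12.47 and 12.34 against 11.52, 11.64 and 11.74, and 13.18, 12.84 and 13.14 against 11.27, 11.33 and 11.30. It was low in every library with MYC (log2FC -0.76 and -1.75, adjusted p = 2.04e-07 and 1.75e-05). Col2a1, the cartilage fibril chain, had a log2FC of 0.44 and 0.58 at mean levels of 5.79 to 7.21, short of the fold cutoff in both sets. Without myc-/- replicate 2 the second was 0.63 and called (adjusted p = 0.00303).

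**Figure D2:**
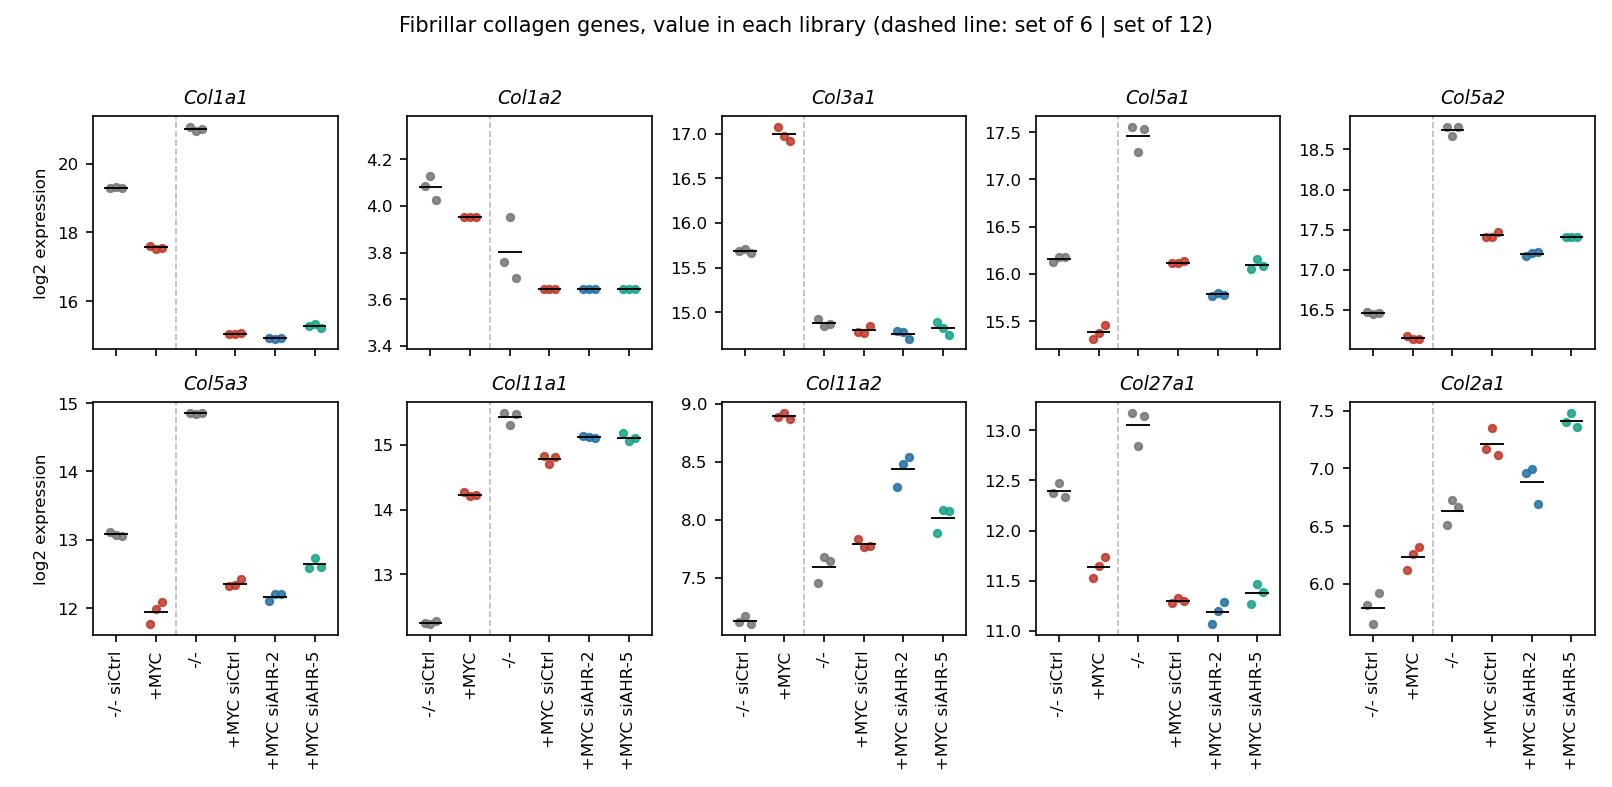
Deposited log2 expression of the 10 fibrillar chains in each library (points) with the group mean (bars), 6-library set left and 12-library set right of the dashed line in each panel; y axes differ between panels. Col1a1 fell from at least 20.93 in myc-/- to at most 15.08 in myc-/- + MYC siCtrl, Col3a1 and Col11a2 were higher with MYC in the 6-library set, and Col1a2 lies flat at 3.64 in 9 libraries.

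Of the basement membrane chains, Col4a1 was lower and Col4a3 was near the bottom of its scale. Col4a1, the α1 chain of the common type IV network, was 17.07, 17.10 and 17.07 in myc-/- siCtrl and 15.65, 15.65 and 15.70 in myc-/- + MYC. In the 12-library set it was 18.33, 18.17 and 18.36 in myc-/- and 16.15, 16.15 and 16.16 in myc-/- + MYC siCtrl. There was no overlap, and the log2FC was -1.41 and -2.13 (adjusted p = 4.41e-12 and 1.29e-06). Col4a3, a chain of the specialised kidney and lung network, was 3.19 in each myc-/- siCtrl library and 3.40, 3.37 and 3.32 in myc-/- + MYC. Its 12-library values were 3.99 in each myc-/- library and 4.06, 4.18 and 4.10 in myc-/- + MYC siCtrl. The libraries without MYC sit on a flat value, and the log2FC of 0.17 and 0.13 missed the fold cutoff. The partner chains Col4a2 and Col4a4 have no row under these symbols.

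Among the other types, 4 members were called lower in the 6-library set and 5 in the 12-library set, and 1 was called higher in each. Lower calls were 28.6% and 35.7% of these 14, beside 14.3% and 14.7% of all genes, and higher calls 7.14% in each set, beside 12.5% and 10.8%. Col14a1, a chain that decorates the surface of fibrils, was 8.72, 8.72 and 8.81 against 7.22, 7.02 and 7.14 in the 6-library set. Its 12-library values were 12.12, 12.25 and 12.20 against 7.37, 7.55 and 7.47. The 3 untransfected myc-/- libraries stood far above the rest of their set, and the log2FC was -1.62 and -4.72 (3.08-fold and 26.4-fold lower, adjusted p = 1.60e-09 and 1.74e-07).

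Col6a2, a chain of the beaded filaments around cells, was 16.42, 16.45 and 16.51 against 15.10, 15.06 and 15.02, and 16.38, 16.34 and 16.36 against 13.06, 13.10 and 13.08. It was low in each library with MYC (log2FC -1.40 and -3.28, adjusted p = 1.57e-11 and 4.30e-08), and its partner Col6a1 has no row under that symbol. Col18a1, a multiplexin whose end is released as endostatin, was 11.73, 11.80 and 11.85 against 10.57, 10.46 and 10.41, and 12.96, 12.94 and 12.97 against 10.03, 9.89 and 9.94. Both sets showed separate groups (log2FC -1.31 and -3.003, adjusted p = 9.80e-10 and 1.93e-07).

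Col8a1, a short chain that forms a network beneath endothelium, was the member called higher with MYC in both sets. It was 9.21, 9.31 and 9.24 in myc-/- siCtrl against 10.41, 10.50 and 10.50 in myc-/- + MYC, and 7.997, 7.99 and 7.86 in myc-/- against 8.79, 8.68 and 8.79 in myc-/- + MYC siCtrl. The libraries with MYC were high without overlap, with a log2FC of 1.22 and 0.80 (adjusted p = 2.61e-09 and 9.35e-05).

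For 3 further members a single set carried the call. Col7a1, the anchoring fibril of skin, was called by its log2FC of -2.01 in the larger set (adjusted p = 5.67e-06), beside -0.34 in the smaller. For Col16a1, a fibril-associated chain, these were -1.89 (adjusted p = 2.55e-07) and -0.08. Col17a1, a transmembrane chain of the hemidesmosome, had the reverse, -1.75 in the smaller set (adjusted p = 1.04e-08) and -0.10 in the larger, where all its values lay between 5.74 and 6.07. The remaining 7 of this class (Col6a4, Col9a1, Col9a2, Col13a1, Col15a1, Col23a1 and Col26a1) were called in none of the 4 comparisons. The size of their log2FC with MYC was at most 0.47 (Col6a4, -0.47 in the 6-library set). Col13a1 and Col23a1 lie on flat values of 0.15 and 2.84 in the control siRNA libraries of the 12-library set. Col9a1 was flat at 1.92 in myc-/- + MYC, and Col26a1 at 3.73 in myc-/- siCtrl and 3.31 in myc-/-. Col6a4 was almost flat in myc-/- + MYC (5.21, 5.21 and 5.24, against 5.58, 5.78 and 5.72 in myc-/- siCtrl), so its -0.47 may be understated. The Col6a4 span overlaps Rpl29 in the RefSeq annotation.

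**Figure D3:**
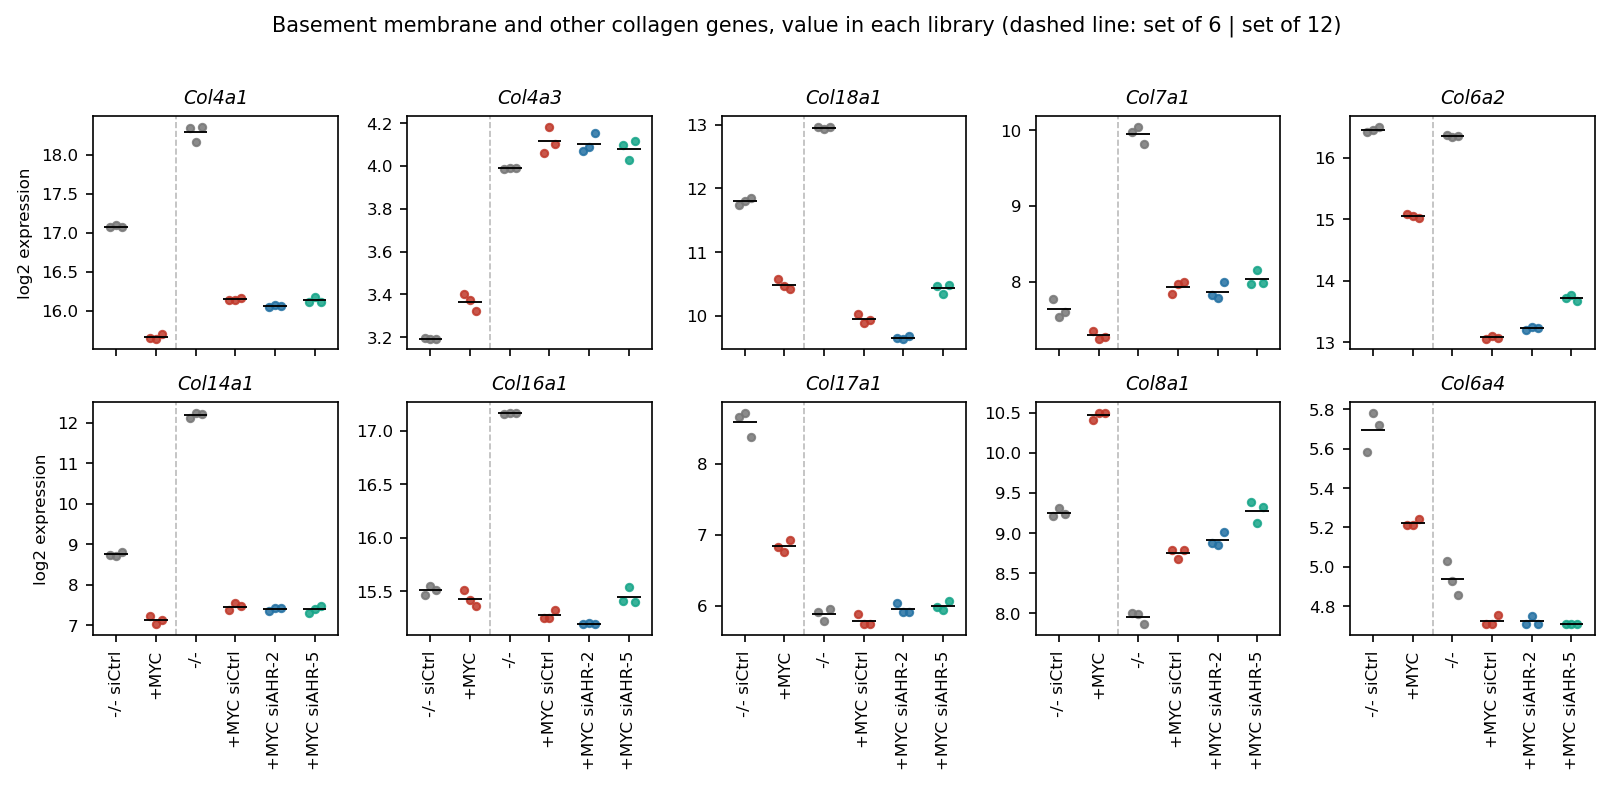
Deposited log2 expression of the 2 basement membrane chains and 8 chains of other types in each library (points) with the group mean (bars), laid out as for the fibrillar chains; y axes differ between panels. The mean of Col14a1 fell from 12.2 in myc-/- to 7.46 in myc-/- + MYC siCtrl, while Col8a1 was higher with MYC in both sets.

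The difference between the 2 MYC effects was tested directly in 1 limma model of the 12 libraries involved. It was called for 14 of 26 members, 13 with a lower log2FC in the 12-library set and 1 with a higher one. Of all genes, 16.5% were called, 9.67% lower and 6.79% higher. Lower values made up 58.7% of all calls, and 47.4% after median centring, under which the members again counted 13 lower and 1 higher. By class these were 7 fibrillar chains, Col4a1 and 5 of the other types lower, and Col17a1 higher. The median difference of the 26 was -0.64, beside -0.02 over all genes. Col1a1 had the most negative difference of all 13188 genes (-4.22 ± 0.06, SE). For members called lower in both sets, the difference was a matter of size, from -0.72 for Col4a1 to -4.22 for Col1a1, and that of Col5a1 (-0.56) missed the fold cutoff, but was -0.65 and called without myc-/- replicate 2.

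Markers of smooth muscle and some of fibroblasts moved with these results. All 4 smooth muscle markers (Acta2, Tagln, Myh11 and Des) were in the table, none was near 0, and all 4 were called lower with MYC in both sets. Their summed level (log2 of the summed linear values) was 14.1 in each myc-/- siCtrl library and 11.6 to 12.2 in myc-/- + MYC, and it was 17.8 to 17.95 in myc-/- and 12.5 to 12.6 in myc-/- + MYC siCtrl. Acta2, the actin of contractile fibroblasts, had a log2FC of -1.49 and -5.27, and Tagln, an actin-binding protein, -2.98 and -5.93. Of the 10 fibroblast markers, 4 were called lower in the 6-library set and 7 in the 12-library set, and none higher. Lower calls were 14.3% and 14.7% of all genes. Of the 10, 3 (P4hb, Dcn and Lum) also belong to the list of collagen-related genes given next. Those called lower in both sets were Fn1 (fibronectin, log2FC -1.76 and -1.80), Pdgfrb (-1.72 and -3.08), Thy1 (-1.15 and -2.20) and Lum (-1.16 and -0.95). Vim, S100a4 and Pdgfra were higher in the 6-library set, short of the fold cutoff (log2FC 0.13, 0.17 and 0.25). In the 12-library set these were lower (-0.17, -0.37 and -0.61), and Pdgfra was called. The summed level of the fibroblast list was 20.4 to 20.5 in myc-/- siCtrl and 19.7 to 19.8 in myc-/- + MYC, and 21.15 to 21.4 in myc-/- and 20.35 to 20.4 in myc-/- + MYC siCtrl. Krt8 (1.70 and 1.17) and Comp (1.24 and 0.97) were called higher in both sets, and Tek in the 6-library set (1.61, beside 0.38). No other marker of epithelium, endothelium, cartilage, bone or leukocytes was called with MYC. The part of these genes in the collagen result was not tested.

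A list of 48 genes that make, trim, crosslink or bind collagen was set beside the members, and 44 were in the table. It was chosen with earlier results of these data known, so its shares are descriptions and no test of the list was made. With MYC, 12 were called lower and 5 higher in the 6-library set, and 30 lower and 1 higher in the 12-library set. Lower calls thus made up 27.3% and 68.2% of the list, beside 14.3% and 14.7% of all genes, and higher calls 11.4% and 2.27%, beside 12.5% and 10.8%. The median log2FC of the list was -0.32 and -0.92. All 5 lysyl oxidases, which crosslink the fibrils, were lower in both sets. Loxl4 had the largest change of the 5 in each set (log2FC -2.05 and -2.97). The values were -1.22 and -2.15 for Loxl1, -1.21 and -1.50 for Loxl3, -0.73 and -1.03 for Lox, and -0.96 and -0.71 for Loxl2.

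Of 11 genes of propeptide trimming and fibril assembly, 4 were lower in the 6-library set and 9 in the 12-library set (36.4% and 81.8%, beside 14.3% and 14.7% of all genes). Fmod, a proteoglycan that binds fibrils, fell by 1.77 and by 4.83 on the log2 scale. Adamts2, the protease that removes the amino end of procollagen, had a log2FC of -1.73 and -2.81, and Pcolce, which aids removal of the carboxyl end, -0.78 and -1.60. Tll1, another procollagen protease, had -0.19, which was not called, and -3.18.

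Of 21 genes of hydroxylation, folding and export, 2 were lower and 4 higher in the 6-library set, against 11 lower and 1 higher in the 12-library set. The 6 called in the first are 28.6% of the group, near the 26.8% of all genes, and the 12 in the second are 57.1%, beside 25.5%. The α subunits of prolyl 4-hydroxylase moved apart: P4ha2 had a log2FC of -1.42 and -1.98, and P4ha1 0.92 and 1.03. Creb3l1, a transcription factor of collagen secretion, rose by 0.64 in the 6-library set and fell by 1.47 in the 12-library set, and P3h3, a prolyl 3-hydroxylase, had -0.29 (not called) and -1.77.

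Among 7 receptors and uptake genes, Itga11, the integrin subunit that binds type I collagen on fibroblasts, had a log2FC of -2.93 and -2.99. Its relative Itga10, which binds cartilage collagen, had 2.95 in the 6-library set and 0.31, not called, in the 12-library set. Itgb1, the common partner of both, had -0.53 and -1.01, and Mrc2, which takes up collagen fragments, -0.48 and -1.30, each called in the 12-library set.

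**Figure D4:**
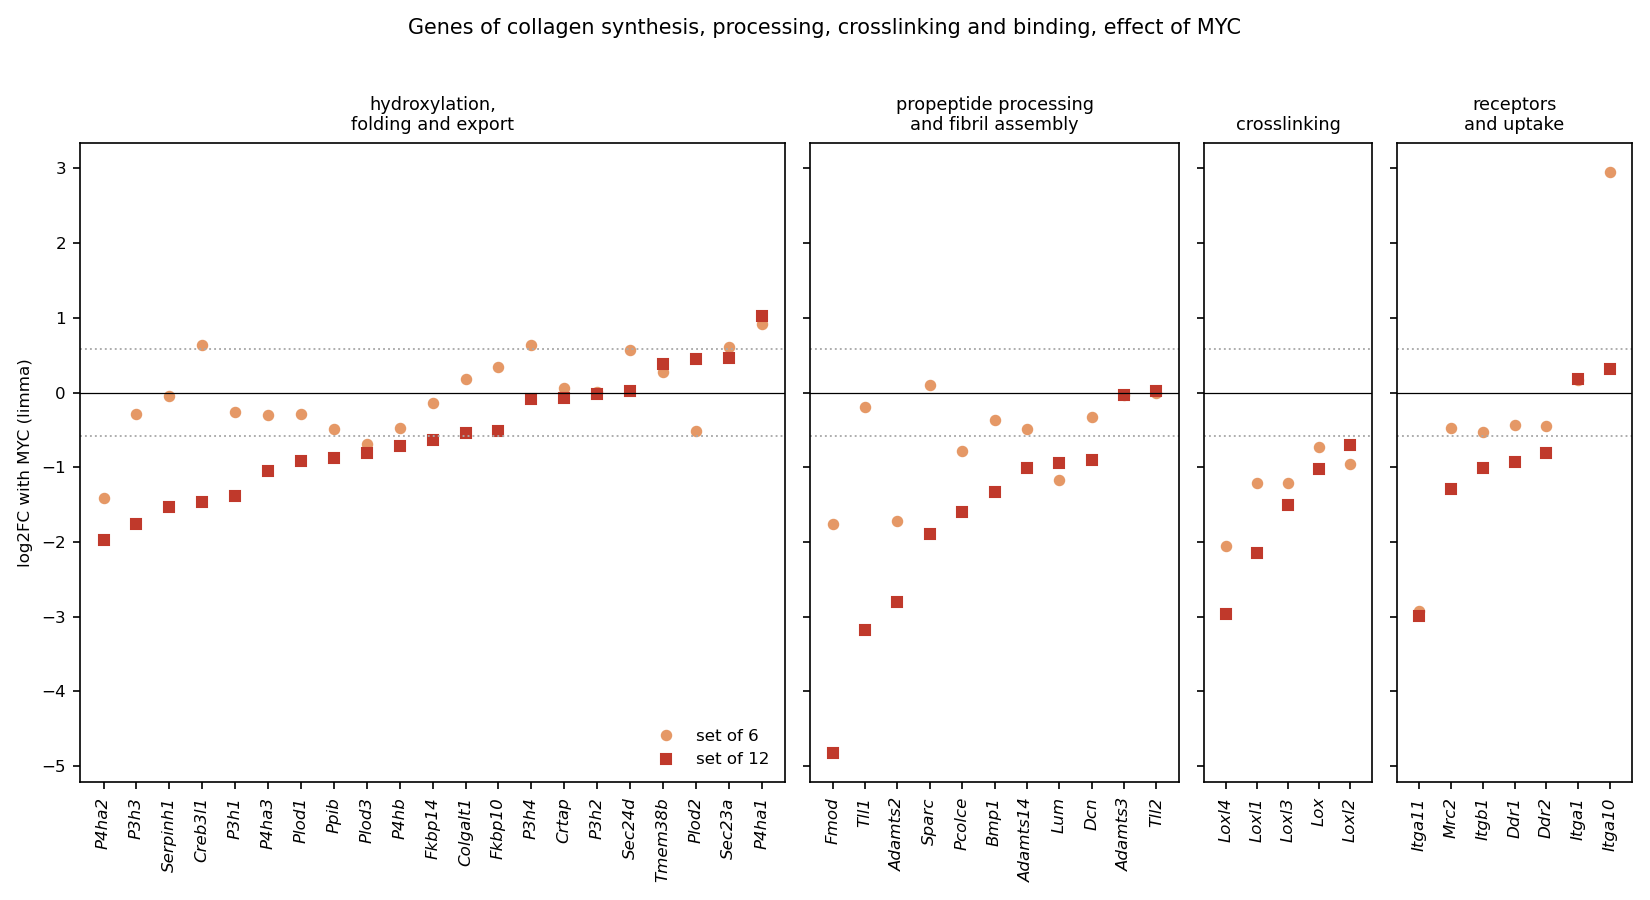
log2FC with MYC (limma) of the 44 genes that make, trim, crosslink or bind collagen, by group, in the 6-library set (circles) and the 12-library set (squares); dotted lines mark the 1.5-fold cutoff. All 5 crosslinking genes lie under the lower line in both sets, and P4ha1 lies above the upper line in both.

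The second question was whether AHR knockdown moved collagen genes in cells with MYC. Both siRNAs were compared with the same 3 siCtrl libraries, which also served in the MYC comparison of that set, so these comparisons are not independent. Ahr itself was 13.34, 13.26 and 13.22 with siCtrl, 11.97, 11.97 and 12.03 with siAHR-2, and 11.95, 11.76 and 11.94 with siAHR-5. It was low in each knockdown library (log2FC -1.29 and -1.39, adjusted p = 2.37e-04 and 2.16e-04). With siAHR-2, 1 member was called, higher, where 0.47% of all genes were called (0.311% lower and 0.159% higher). With siAHR-5, 1 member was called, higher, where 2.32% of all genes were called (0.849% lower and 1.47% higher). Groups did not overlap for 50% of members and 43.3% of all genes with siAHR-2, and for 42.3% and 50.5% with siAHR-5. Among all genes called with siAHR-2, 66.1% were lower, and 77.9% after median centring. With siAHR-5, 36.6% of all called genes were lower, 49.8% after quantile normalization and 54.1% after median centring.

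The member called with siAHR-2 was Col11a2, at 7.83, 7.76 and 7.77 with siCtrl and 8.28, 8.48 and 8.54 with siAHR-2. The knockdown libraries were higher without overlap (log2FC 0.65 ± 0.08, SE, adjusted p = 0.00326), and with siAHR-5 it was 7.89, 8.08 and 8.07 (log2FC 0.23, adjusted p = 0.0417). The call was lost in 7 of 14 alternatives: in 5 of 6 fits that left out 1 library (adjusted p 0.0119 to 0.0185), in all but the one without siAHR-2 replicate 1, after quantile normalization (log2FC 0.58) and with the replicate number as a block (adjusted p = 0.0247). Adjusted p ran from 3.43e-05 to 0.0247 over these alternatives.

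The member called with siAHR-5 was Col6a2, at 13.06, 13.10 and 13.08 with siCtrl and 13.72, 13.78 and 13.67 with siAHR-5. It was high in each siAHR-5 library (log2FC 0.64 ± 0.03, SE, adjusted p = 2.92e-04), and with siAHR-2 it was 13.21, 13.25 and 13.24 (log2FC 0.15, adjusted p = 0.00373). After median centring the siAHR-5 value was 0.58 and just missed the fold cutoff, while adjusted p was between 6.04e-08 and 0.00474 over 14 alternatives.

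Other members moved by less. At an adjusted p below 0.05 with no fold cutoff, siAHR-2 gave 6 lower (Col1a1, Col4a1, Col5a1, Col5a2, Col5a3 and Col18a1) and 3 higher members (Col6a2, Col11a1 and Col11a2), where 29.3% of all genes passed (15.5% lower and 13.7% higher). By the same rule siAHR-5 gave 9 higher members and none lower, where 39.2% of all genes passed (18.1% lower and 21.1% higher), but after median centring 7 were higher and 4 lower. Col18a1 was 10.03, 9.89 and 9.94 with siCtrl, 9.64, 9.64 and 9.68 with siAHR-2, and 10.47, 10.34 and 10.48 with siAHR-5. It lay under the control libraries with one siRNA and above them with the other (log2FC -0.30 and 0.48). Col1a1 had a log2FC of -0.13 and 0.22, Col5a3 -0.19 and 0.28, Col11a1 0.34 and 0.33, and Col8a1 0.16 and 0.53. With MYC, the log2FC of Col1a1 in the same set was -5.95.

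**Figure D5:**
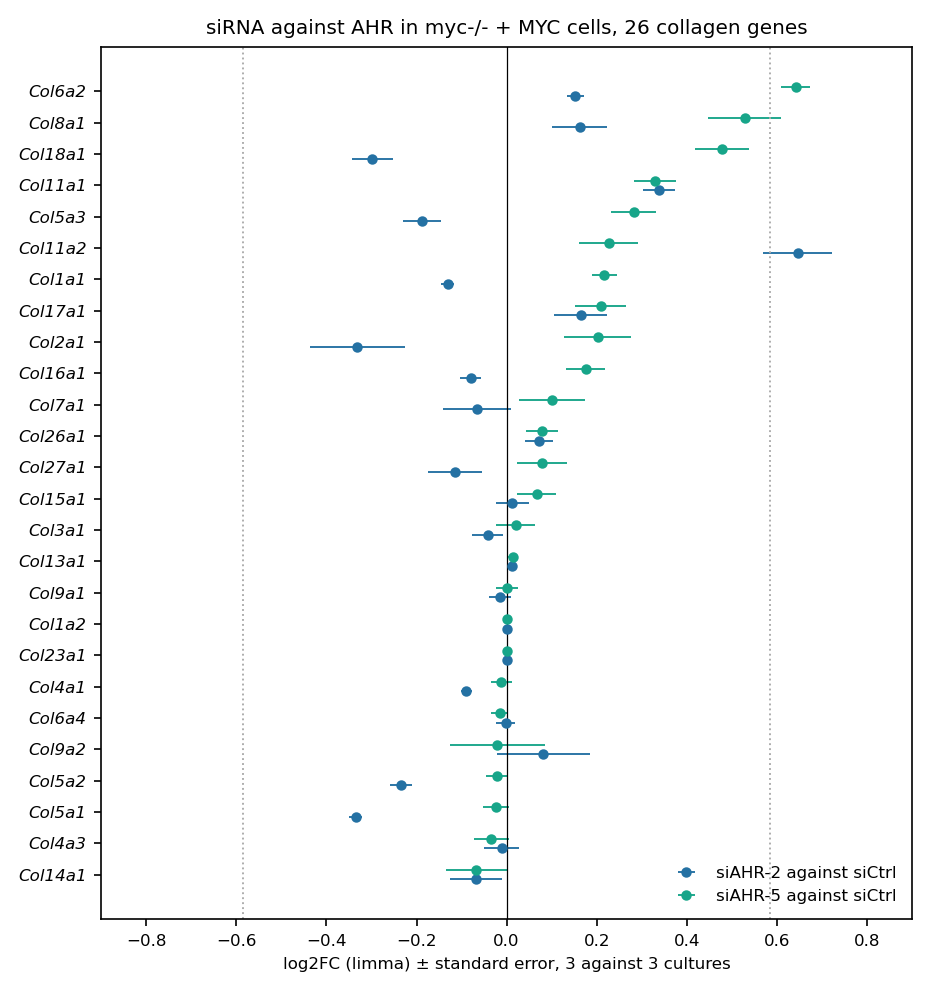
log2FC (limma) with standard error for the 26 collagen genes with siAHR-2 and siAHR-5, each against the same 3 siCtrl libraries of cells with MYC; dotted lines mark the 1.5-fold cutoff. Col11a2 with siAHR-2 and Col6a2 with siAHR-5 lie past it.

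In the list of collagen-related genes, 3 of 44 (6.82%, beside 0.311% of all genes) were called lower with siAHR-2: Loxl2, a lysyl oxidase (log2FC -1.24), Pcolce (-0.71) and Serpinh1, the collagen chaperone (-0.66). With siAHR-5 these had -0.20, 0.0045 and -0.07. None of the 3 was called with the replicate number as a block. With siAHR-5, Itga10 and Itga11 were called higher (both 0.74; 4.55% of the list, beside 1.47% of all genes), and with siAHR-2 they had 0.24 and -0.08.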

How the data were processed

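Poly-A RNA from 18 samples of HO15.19 cells was sequenced with a NEBNext Ultra kit, and the groups were taken from the sample labels. The authors assessed read quality with NGS-QC-Toolkit, mapped reads to rn6 (HISAT2 2.1.0), removed genes under a minimum total read count and normalised with DESeq2. The read counter and annotation are not given in the sources used here. The deposited values are log2 normalised expression whose transformation is not stated. They are not counts, so depth is unknown, no counting interval was drawn, and low genes sit on flat values where differences are understated.

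Members and lists were chosen with earlier results of these data known. limma 3.58.1 (R 4.3.3; lmFit, eBayes with trend) was fitted on all 13188 genes for each pair of groups, with Benjamini-Hochberg adjustment, and calls needed a change of at least 1.5-fold and an adjusted p of at most 0.01. The difference between the MYC effects was a contrast of 4 groups. The genes named with values were the called members, the chain pairs, up to 4 per group of the collagen-related list, and its genes called with an siRNA. Scripts were tested on simulated data. Alternatives were no fold cutoff at an adjusted p below 0.05, no trend, quantile normalization, median centring, a mean of at least 5, a pseudocount of 1, a replicate block, all 12 libraries in 1 fit and each library left out. Promoters were read from RefSeq (GRCr8); protein sequences were not used here. Figures were drawn with matplotlib 3.10.9.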

Additional observations from a re-analysis of the deposited data

Results flagged for a closer look

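For 14 collagen genes the MYC effect differed between the 2 sets of libraries, by limma's test of the difference itself. The log2FC in the 12-library set minus that in the 6-library set was -4.22 for Col1a1, -3.10 for Col14a1, -2.63 for Col11a1, -1.88 for Col6a2, -1.81 for Col16a1, -1.69 for Col18a1 and -1.67 for Col7a1. It was -1.57 for Col11a2, -1.39 for Col3a1, -1.35 for Col5a3, -1.002 for Col5a2, -0.997 for Col27a1 and -0.72 for Col4a1, and 1.65 for Col17a1. Of all genes, 16.5% passed the same test. The control cells were transfected in one set and not in the other, the cells with MYC the reverse, and the sets were scaled apart, and none of these can be told apart from the difference. Without myc-/- replicate 2, all 14 were again called.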

How the results depend on the processing

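Of 90 log2FC values of named members, 87 kept their call when any 1 library was left out. The exceptions among the 90 were Col11a2 with siAHR-2, Col8a1 with siAHR-5 (0.61 and called without siAHR-5 replicate 2) and the difference between sets for Col5a1. That difference was called without myc-/- + MYC replicate 1 (-0.60), without myc-/- replicate 2 (-0.65) and after quantile normalization (-0.60). Col2a1 was not among the 90, and in the 12-library set it was called without myc-/- replicate 2 (0.63). No called value changed sign in any alternative. Counts of called members stayed at 13 in the 6-library set and 13 to 14 in the 12-library set when a library was left out. They ranged from 0 to 1 with siAHR-2 and from 1 to 2 with siAHR-5.

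Without the fold cutoff, at an adjusted p below 0.05, 21 members and 39 genes of the collagen-related list passed in the 6-library set (76.2% of all genes did), 17 and 37 in the 12-library set (64.7%), 9 and 20 with siAHR-2 (29.3%), and 9 and 23 with siAHR-5 (39.2%). The members' shares, 80.8%, 65.4%, 34.6% and 34.6%, were near those of all genes. After quantile normalization 0 members were called with siAHR-2 by limma (11 at an unadjusted p under 0.05), and after median centring 0 with siAHR-5 (18 at an unadjusted p under 0.05). In both cases the member lost its call because its log2FC came to 0.58, short of the cutoff. The direction of the members under these scalings at an adjusted p below 0.05 was an alternative chosen after seeing the data.

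Same-numbered libraries did not deviate together in every pair of any comparison (mean correlation -0.03, -0.01, 0.01 and 0.10 in the 4 comparisons), and 0, 1, 2 and 4 of the 6 libraries correlated best with their own number, so the number was taken as a name. With a replicate block in limma, 13 members were called in each MYC set, 1 with siAHR-5 and 14 for the difference. With siAHR-2 under the replicate block 0 members and 0 list genes (Loxl2, Pcolce and Serpinh1 lost their calls) were called (13 and 23 at an unadjusted p under 0.05), as were 0 of all genes, where Col11a2 had an adjusted p of 0.0247. The depth of the libraries is unknown, so precision rests on 3 libraries a group.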
